A study of Mus musculus with 8 samples.

Results

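The genes described here encode RNA-binding and repeat-containing proteins that are linked to neurodegeneration. They are 2 FET family genes (Ewsr1 and Taf15), Tardbp, which encodes TDP-43, and 6 ataxin genes (Atxn1, Atxn2, Atxn2l, Atxn3, Atxn7 and Atxn10). The measurements are binding peaks of RBM45, an RNA-binding protein found in the inclusions of amyotrophic lateral sclerosis (ALS) and frontotemporal dementia (FTD). A peak was assigned to a gene when its midpoint lay in the body of the gene on the same strand, in the mm10 mouse build with GENCODE M21 genes. The 9 genes held 1205 distinct peak intervals out of 731580 in the series. Of these, 40 lay in the FET genes and Tardbp and 1165 in the ataxin genes, 98 of them in Atxn2. The genes were named by their disease links, but they were chosen with earlier results of these data known.

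The peaks come from the wild-type (WT) CLIP group, which has 2 libraries, called replicate 1 and replicate 2. The cells were mHiPPoE-2, a transformed mouse hippocampal neuron line whose labelled strain is Crl:CFW(SW)-024. They had received a lentivirus that expresses FLAG-HA-tagged mouse RBM45, which was pulled down through the HA tag. RBM45 was therefore supplied by a transgene, and the labels do not say whether the replicates were separate cultures. The assay was iCLIP, which sequences the RNA bound by a protein. UV crosslinking is stated only in the labels of the Mettl3 knockout samples, which were not compared here. Both libraries belong to 1 group, so no condition was compared and no p-value is given.

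FET proteins and TDP-43 are mostly nuclear RNA-binding proteins that act in transcription and splicing, and TDP-43 limits its own level through the 3' UTR of its transcript. Most ataxin genes are named for the spinocerebellar ataxias in which they are mutated. Apart from relatives such as ataxin-2 and ataxin-2-like, their products are largely unrelated in sequence. Ataxin-2 and its relative ataxin-2-like bind RNA and poly(A)-binding protein and are components of stress granules. Long glutamine tracts in human ataxin-2 cause ataxia, and tracts of intermediate length raise the risk of ALS.

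The sequences of exonic peaks are shown because they are the RNA of these genes that the peaks lie on. Each is a window of 30 bases in the direction of the transcript, in the GRCm38 (mm10) build, from GENCODE M21 transcripts, and was centred on the bases that both replicates covered or on the peak of the named replicate. Capitals mark GAC, the core of the m6A sequence context, and TTTTT, a run of 5 U in the RNA. Only the transcript strand was searched, and the motifs cannot overlap each other.
Ewsr1 3' UTR, both replicates, chr11:5069812-5069841, minus strand: cTTTTTaagatggttgttttaaGACttaac
Taf15 3' UTR, both replicates, chr11:83506674-83506703, plus strand: cgttgtaaaatattgccaaaatggaaagtg
Tardbp 3' UTR, replicate 1, chr4:148617116-148617145, minus strand: gtatggtgtgtgttctcctctgttactgat
Tardbp 3' UTR, replicate 2, chr4:148617512-148617541, minus strand: actctttatttcatggagtcgtatcaacgc
Atxn2 3' UTR, replicate 2, chr5:121814641-121814670, plus strand: TTTTTaatggcccttgagagtcatgaacac
Atxn2l coding sequence, both replicates, chr7:126500744-126500773, minus strand: acgttctgcttgtccacttccgaaatgttg
Atxn2l 3' UTR, both replicates, chr7:126492319-126492348, minus strand: tgcttctGACagtcccctgaGACtcctcga
Atxn7 3' UTR, both replicates, chr14:14105730-14105759, plus strand: cagttttcttaaactacaaaaaataaaata

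Over all exonic peaks of the 9 genes, 60 of 62 windows could be read. GAC stood in 19 of them (31.7%) and TTTTT in 7 (11.7%). Among windows of exonic shared peaks over all genes, 606 of 1757 held GAC (34.5%) and 195 held TTTTT (11.1%). The member windows include peaks of a single replicate and the windows over all genes do not. Neither motif was much more or less frequent in the member windows than over all genes. The Atxn2l 3' UTR window lies in an intron of the reference transcript and was read from another transcript. Most peaks of these genes are intronic, and intronic sequence was not read here.

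Across the series, replicate 1 had 387749 distinct peaks and replicate 2 had 344700, and their median width was 30 bp, the least in the lists. The number of reads behind them is unknown. Each peak has a fold over background given by the authors' peak caller, used here only to describe and rank peaks. A shared peak is a replicate 2 peak that stands in the deposited overlap list, where a replicate 1 peak covers at least 50% of it, and its lower fold is the smaller of the folds in the replicates. Peaks lie on a strand, but the rule that assigned it was not stated in the labels or files, so RNA of overlapping genes on opposite strands cannot be told apart.

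In the FET genes and Tardbp peaks were few, and in the ataxin genes their number ran over a wide range. Ewsr1 had 9 peaks in replicate 1 and 9 in replicate 2, Taf15 had 8 and 2, and Tardbp had 8 and 4. Atxn2 had 50 and 48, Atxn1 438 and 312, Atxn7 89 and 70, Atxn10 43 and 46, Atxn3 29 and 23, and Atxn2l 10 and 10. The numbers were close between replicates in Ewsr1, Atxn2, Atxn2l and Atxn10, whereas Taf15 had far fewer in replicate 2. Gene length also differed: the FET genes and Tardbp are 14.6 to 33.7 kb long and the ataxin genes 11.7 to 415 kb. Per 10 kb of gene, replicate 1 peaks numbered 2.38 to 5.47 in the FET genes and Tardbp and 3.39 to 10.5 in the ataxin genes. The ranges of the classes overlapped. In replicate 2 they were 0.594 to 3.04 and 3.62 to 8.53, so that each ataxin gene lay above each gene of the other class in that library.

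Shared peaks were present in 7 of the 9 genes, 2 of 3 in the FET and Tardbp class and 5 of 6 among the ataxin genes. Of the 15995 genes with peaks in both replicates, 38.7% had a shared peak. Atxn1 had 25 shared peaks, Atxn2 16, Atxn7 4, Atxn2l 3, Atxn10 3, Ewsr1 2 and Taf15 2, and Tardbp and Atxn3 had 0. Atxn1 and Atxn2 are the genes that stand out in number, since 0.131% of all genes had 25 or more shared peaks and 0.556% had 16 or more. The other 5 genes had counts that are common: 19.3% of all genes had 2 or more, 11.8% had 3 or more and 8.28% had 4 or more. The median length over all genes was 27900 bp, and long genes have more room for peaks. Per 10 kb of gene, Atxn2l had 2.56 shared peaks and Atxn2 1.52, ahead of Ewsr1 (0.676), Atxn1 (0.602), Taf15 (0.594), Atxn7 (0.274) and Atxn10 (0.236). The value over all genes, pooled by length, was 0.149 per 10 kb, below each of these 7 genes. Taken gene by gene over the 15995 genes, the median was 0 and the upper quartile 0.281 per 10 kb. Atxn7 and Atxn10 lay below that quartile.

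**Figure D1:**
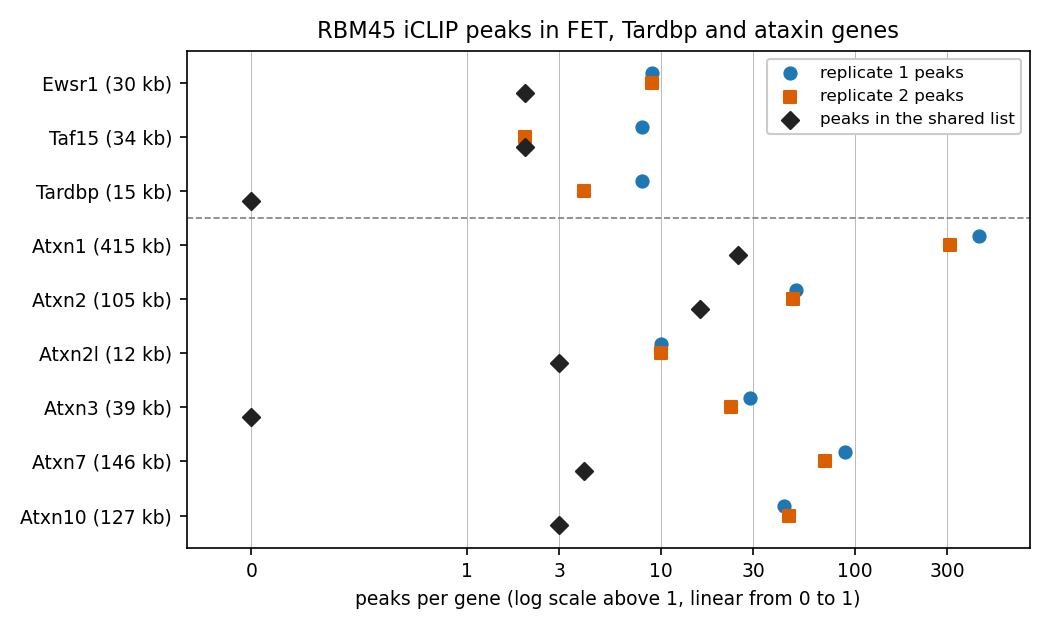
Number of peaks per gene in replicate 1 (circles), replicate 2 (squares) and the shared list (diamonds); the horizontal axis is logarithmic above 1 and linear from 0 to 1, and the dashed line divides the FET genes and Tardbp (above) from the ataxin genes. Atxn1 and Atxn2 have 25 and 16 shared peaks, and Tardbp and Atxn3 have 0.

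Ewsr1 encodes EWS, an RNA-binding FET protein that is fused to transcription factors in Ewing sarcoma. The gene spans chr11:5069689-5099266 on the minus strand and has 18 exons in its reference transcript. Both of its shared peaks lay in intron 1, which is 5.1 kb long. The stronger, chr11:5096974-5097014, had a fold of 6.26 in replicate 1 and 5.57 in replicate 2 and stood 2.27 kb from the gene start. The weaker, chr11:5097779-5097808, had 3.31 and 2.94 and stood 1.47 kb from the start. In both peaks the replicates differed little in fold. In the 3' UTR, a replicate 1 peak (chr11:5069821-5069851, fold 5.43) and a replicate 2 peak (chr11:5069785-5069832, fold 3.24) overlapped by too few bases for the shared list. The strongest peaks found in 1 library alone lay in other introns: chr11:5073068-5073164 in intron 12 of replicate 1 (4.91) and chr11:5080718-5080752 in intron 9 of replicate 2 (4.15).

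Taf15 encodes a FET protein that associates with the general transcription factor TFIID. The gene spans chr11:83473086-83506743 on the plus strand, with 16 exons. Its replicate 2 library had only 2 peaks, and both were shared. The first, chr11:83497585-83497677, lies in intron 8, which is 597 bp long, and had folds of 9.72 in replicate 1 and 2.67 in replicate 2. That difference, 3.64 times, was the widest between replicates among the shared peaks of all 9 genes. The second, chr11:83506654-83506741, lies in the 3' UTR and ends 2 bp before the annotated end of the gene, with folds of 4.19 and 5.93. In replicate 1 introns 8 and 9 held 2 peaks each, and the strongest peak without a partner lay in intron 1 (chr11:83474648-83474677, fold 4.79).

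Tardbp encodes TDP-43, whose aggregates mark most cases of ALS. The gene spans chr4:148612382-148627019 on the minus strand, with 7 exons, and is the shortest of its class. No Tardbp peak of replicate 2 overlapped a replicate 1 peak by even 1 bp (0 of 4, Wilson 95% interval 0 to 49.0%). Exons fill a large part of this gene: the last exon of its reference transcript runs from 9314 to 14638 bp of its 14638 bp. Its peaks were largely exonic: counting exons of any transcript of the gene, 6 of 8 in replicate 1 and 3 of 4 in replicate 2. Of these, 6 in replicate 1 and 2 in replicate 2 were in the 3' UTR. In each replicate 1 of them lay in an intron of the reference transcript that is 3' UTR in another transcript. The strongest were chr4:148617113-148617148 in replicate 1 (fold 6.75) and chr4:148617504-148617550 in replicate 2 (3.96), both in the 3' UTR. One replicate 2 peak, chr4:148625342-148625371 with a fold of 3.37, covered the start codon. Masp2, on the plus strand, overlaps the 3' end of Tardbp, and 2 replicate 1 intervals are listed on both strands, so the RNA under them cannot be assigned to one gene.

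**Figure D2:**
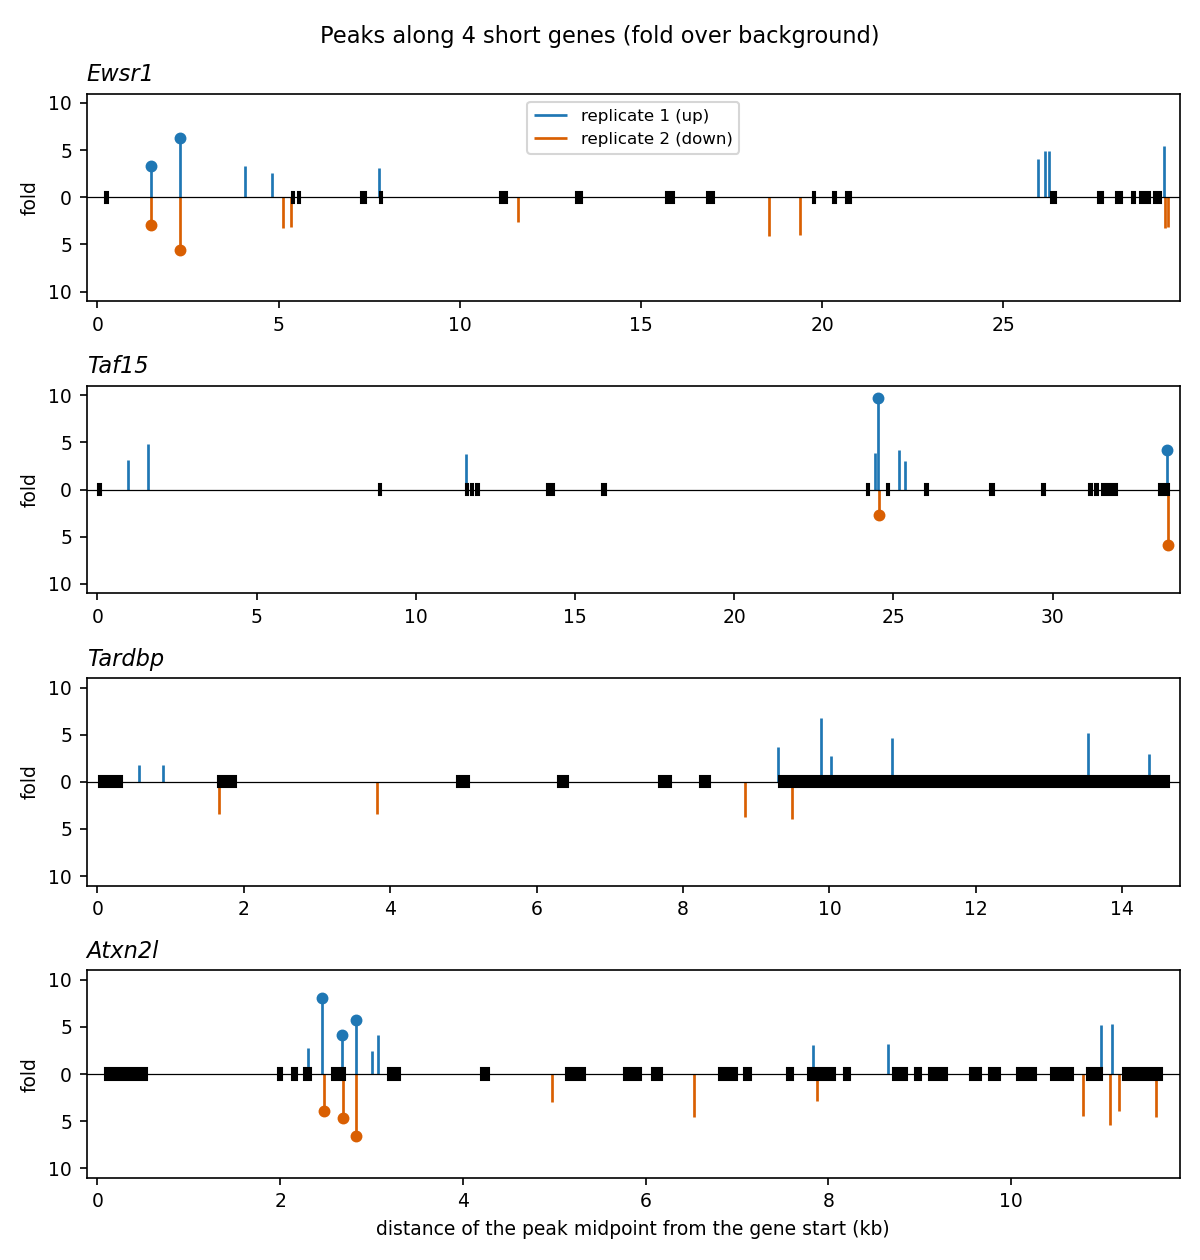
Peaks along Ewsr1, Taf15, Tardbp and Atxn2l: the horizontal axis is the distance from the gene start in kb and the vertical axis the fold over background, with replicate 1 upward and replicate 2 downward. Dots mark peaks of the shared list and black bars the exons of the reference transcript; Tardbp has no dots, and the 3 shared peaks of Atxn2l stand 2.48 to 2.84 kb from its start.

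Short runs of shared peaks lay in Ewsr1, Atxn1, Atxn2 and Atxn2l. Atxn2 differed from the other 8 genes in the number of shared peaks in its run. The gene spans chr5:121711337-121816493 on the plus strand, with 25 exons. All 16 shared peaks lay in intron 1, within chr5:121734709-121738218, a stretch of 3.51 kb that begins 23.4 kb from the gene start. The stretch is 3.34% of the gene and 10.5% of the 33446 bp of intron 1, and it contains 0 annotated exons on either strand. It held 19 of 50 peaks in replicate 1 (38.0%) and 18 of 48 in replicate 2 (37.5%). In the stretch there were 5.41 peaks per kb in replicate 1 and 5.13 in replicate 2, against 0.305 and 0.295 in the remainder of the gene. Peaks covered 49.3% and 38.0% of the bases of the stretch and 1.06% and 1.11% of the other bases of the gene. Both libraries thus placed the same large share of Atxn2 peaks in this small stretch. The shared peaks followed each other closely, with gaps of 110 to 653 bp between neighbouring midpoints and a median of 176 bp.

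Folds were highest in the same place. In the stretch the median fold was 7.52 in replicate 1 (3.27 to 28.8) and 6.19 in replicate 2 (2.94 to 19.8). Outside it the medians were 3.24 and 3.05, and the highest folds 4.22 and 6.02. The highest fold of either library stood in the stretch, and the ranges in and out of it overlapped. Peaks were also wider there: the median width was 63 bp in replicate 1 and 70 bp in replicate 2, against 30 bp in each outside. Of the replicate 2 peaks, 18 of 18 in the stretch overlapped a replicate 1 peak by 1 bp or more, against 2 of 30 outside. The stretch was bounded by the first and the last shared peak, so these contrasts in and out of it are descriptions that its choice partly fixed, the overlap above all.

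The strongest shared peak of Atxn2 by lower fold was chr5:121735682-121735832, 151 bp wide, with a fold of 25.5 in replicate 1 and 19.8 in replicate 2. The authors' −log10 p for it was 64.9 and 41.2. The second, chr5:121736439-121736478, had folds of 28.8 and 14. These were followed by chr5:121735557-121735643 with 12.3 and 19.1, chr5:121737524-121737557 with 10.3 and 11.9, chr5:121735014-121735102 with 8.89 and 8.56, and chr5:121735366-121735481 with 12.3 and 7.32. The value of 12.3 appears 2 times because 1 replicate 1 peak of 261 bp spans 2 replicate 2 peaks, so that the 16 shared peaks rest on 15 replicate 1 peaks. The other 10 had lower folds of 2.94 to 6.19. The fold was higher in replicate 1 for 11 shared peaks and higher in replicate 2 for 5, so neither library led throughout. A further 2 replicate 2 peaks in the stretch overlapped replicate 1 peaks but were not in the list: chr5:121737166-121737296 (5.62), across 2 replicate 1 peaks with folds of 10.9 and 5.47, and chr5:121734904-121734971 (3.65).

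Elsewhere in Atxn2 peaks were scattered and mostly found in 1 library. The 2 replicate 2 peaks outside the stretch that did overlap a replicate 1 peak stood close to its ends, at chr5:121734526-121734595 (4.61) and chr5:121738713-121738794 (3.82). The strongest with no overlap at all were chr5:121737969-121738024 in replicate 1 (5.54), inside the stretch, and chr5:121718279-121718311 in replicate 2 (6.02), earlier in intron 1. Exonic peaks were rare. Replicate 1 had 2 in coding sequence (1.82 and 3.29), and replicate 2 had 1 in coding sequence (3.01) and 1 in the 3' UTR, chr5:121814636-121814675 (5.06). No overlapping gene is annotated across the stretch.

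**Figure D3:**
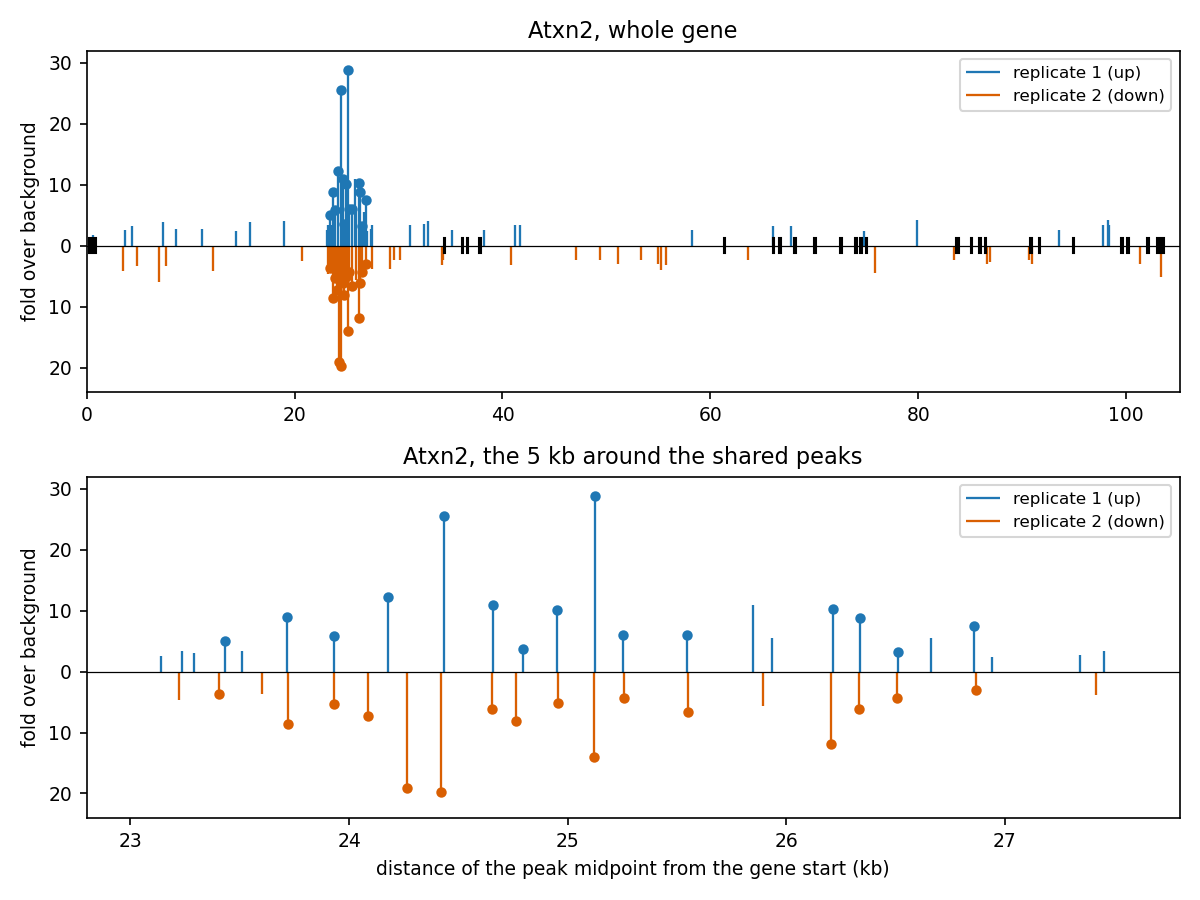
Peaks along Atxn2 by distance from the gene start in kb, with the fold over background in replicate 1 upward and in replicate 2 downward; dots mark peaks of the shared list and black bars the exons of the reference transcript. In the upper panel (whole gene) all dots stand 23.4 to 26.9 kb from the start, and the lower panel shows the 5 kb around them.

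Among all genes no other had as many shared peaks so close together. The largest number within 5 kb was 16 in Atxn2, and 0.00625% of genes (1 gene, Atxn2 itself) reached it. Numbl, Prune2 and Ubtd1 followed with 14, and Dcakd, Mrps27, Nlk, Rgs12 and Slc25a13 with 12. In Numbl the 14 were all of its shared peaks, as the 16 were in Atxn2. Atxn1 had 5 within 5 kb, Atxn2l 3 and Ewsr1 2. At least 2 were present in 4 of the 9 genes, against 11.6% of all genes, and at least 3 in 3 of the 9, against 4.29% of all genes. Taf15, Atxn7 and Atxn10 each had 1 at most. Atxn2 and Atxn1 were among the 2.14% of all genes with 4 or more.

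**Figure D4:**
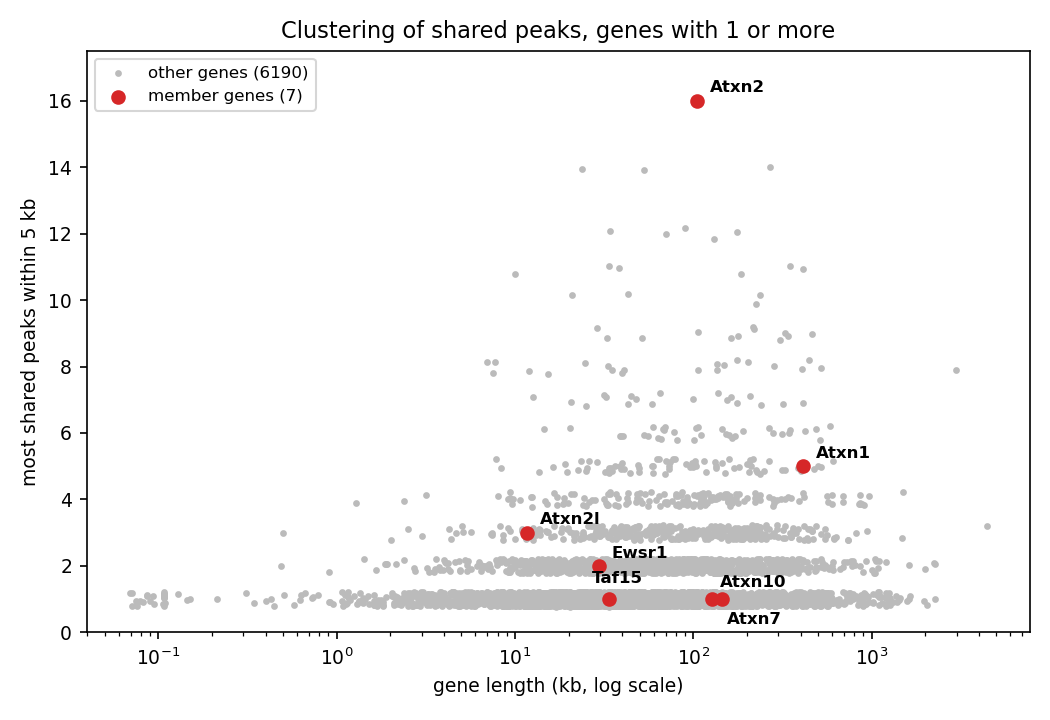
Largest number of shared peaks within 5 kb (vertical axis, points shifted slightly up or down for display) against gene length in kb (horizontal axis, logarithmic) for the genes with a shared peak. Red points are the 7 member genes and grey points the 6190 other genes; Atxn2, at 16, stands above all of them.

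The genes most like Atxn2, taken as those nearest in length among the 88 others with 16 or more shared peaks, differed from it in spread. Synj2 (103 kb) had 16 shared peaks, at most 6 of them within 5 kb, over 64.8 kb. Rgs12 (90.2 kb) had 18 and at most 12 within 5 kb, Csnk1g1 (136 kb) 18 and 8, Mrps27 (70.8 kb) 23 and 12, and Ubtd1 (52.9 kb) 18 and 14. From the first to the last midpoint, the shared peaks of Atxn2 spanned 3.46 kb and those of these 5 genes 24.2 to 113 kb. The best lower fold of Atxn2, 19.8, lay within their range of 8.41 to 32.7. Atxn2 therefore stood apart from these genes in spacing and not in fold.

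Atxn2l encodes ataxin-2-like, the paralog of ataxin-2. The gene spans chr7:126491708-126503437 on the minus strand, with 24 exons, and is the shortest of the 9. Its 3 shared peaks stood within 447 bp, 2.48 to 2.84 kb from the gene start, across exon 5 and the introns on its sides. The peak in intron 4 (229 bp long), chr7:126500918-126501001, had folds of 8.09 in replicate 1 and 3.95 in replicate 2. The peak in the coding sequence of exon 5, chr7:126500716-126500783, had 4.14 and 4.61. The peak in intron 5 (469 bp long), chr7:126500555-126500647, had 5.79 and 6.58. Folds were above 3 in both libraries for all 3, as for 15 of 16 in Atxn2, but the peaks of the paralogs lay in different places: deep in a long first intron in Atxn2, and around a coding exon flanked by short introns in Atxn2l. Exonic peaks made up 5 of 10 in replicate 1 and 6 of 10 in replicate 2 of Atxn2l, against 2 of 50 and 2 of 48 in Atxn2. In Atxn2l 1 and 3 of these lay in an intron of the reference transcript that is 3' UTR in another. The reference transcripts have 24 exons in 11.7 kb of Atxn2l and 25 exons in 105 kb of Atxn2. Exons thus fill a larger part of Atxn2l, and the exonic shares were not corrected for this. A pair in the 3' UTR of Atxn2l, chr7:126492308-126492345 in replicate 1 (5.3) and chr7:126492322-126492376 in replicate 2 (5.36), overlapped but was not in the list. The strongest Atxn2l peaks of 1 library alone were chr7:126492438-126492474 in the 3' UTR in replicate 1 (5.19) and chr7:126496887-126496918 in intron 10 in replicate 2 (4.55).

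Atxn1 encodes ataxin-1, a nuclear protein that acts with the repressor Capicua. The gene spans chr13:45549755-45965008 on the minus strand and is the longest of the 9. Its 25 shared peaks were all intronic, and most were weak: the lower fold was under 2 in 19 of them, 2 to 3 in 2 and at least 3 in 4. Shared peaks were spread over introns 1 to 6, with 4, 9, 2, 6, 2 and 2 from the first to the last. The strong ones were concentrated in intron 1, which is 8239 bp, or 1.98% of the gene. There, 4 shared peaks lay within 983 bp, 4.21 to 5.15 kb from the gene start. The strongest, chr13:45960351-45960420, had folds of 5.56 in replicate 1 and 5.31 in replicate 2. The others there were chr13:45960786-45960815 with 4.62 and 3.53, chr13:45959964-45959993 with 7.29 and 3.51, and chr13:45959833-45959882 with 2.74 and 4.76. In 3 of these 4 both folds were above 3. Outside intron 1 the strongest were chr13:45782635-45782664 in intron 4 (3.77 and 3.59) and chr13:45907297-45907398 in intron 2 (2.72 and 3.97), and the other 19 had lower folds of 1.82 to 1.91. Of these, 2 lie under Gm47460 on the opposite strand. The highest fold in the gene, 9.1 at chr13:45906677-45906728 in intron 2, was a replicate 1 peak whose overlap did not reach the list. The strongest without any overlap were chr13:45947238-45947270 in intron 2 in replicate 1 (6.84) and chr13:45670007-45670058 in intron 6 in replicate 2 (6.09).

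Atxn7, which encodes a subunit of the SAGA histone-modifying complex, had 4 shared peaks, spread one by one along chr14:13961440-14107302 on the plus strand. The first 3 were intronic with folds near the lower limit of the lists. Their folds in replicates 1 and 2 were 1.93 and 1.85 at chr14:14035475-14035504, 1.91 and 1.85 at chr14:14072904-14072933, and 1.95 and 1.87 at chr14:14086801-14086830. The fourth, chr14:14105725-14105754 in the 3' UTR, had 1.85 and 3.09. Its strongest peaks of 1 library alone, both in intron 3, reached 4.74 in replicate 1 (chr14:14034929-14034962) and 3.97 in replicate 2 (chr14:14024024-14024053), above its shared peaks. Atxn10 (chr15:85336245-85463212, plus strand) encodes an armadillo-repeat protein and had 3 intronic shared peaks with higher folds. They were chr15:85361750-85361779 in intron 2 (3.51 and 3.81), chr15:85420168-85420197 in intron 9 (3.44 and 3.12) and chr15:85439643-85439672 in intron 10 (4.79 and 2.81). Single-library peaks of Atxn10 reached like folds, with 4.75 at chr15:85441849-85441885 in replicate 1 and 4.02 at chr15:85351136-85351167 in replicate 2. Atxn3 (chr12:101918901-101958246, minus strand) encodes a deubiquitinase and had 0 shared peaks, with 1 of 23 replicate 2 peaks overlapped. Its strongest peaks were chr12:101951866-101951899 in intron 1 in replicate 1 (5.61) and chr12:101945832-101945881 in coding sequence in replicate 2 (3.72).

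**Figure D5:**
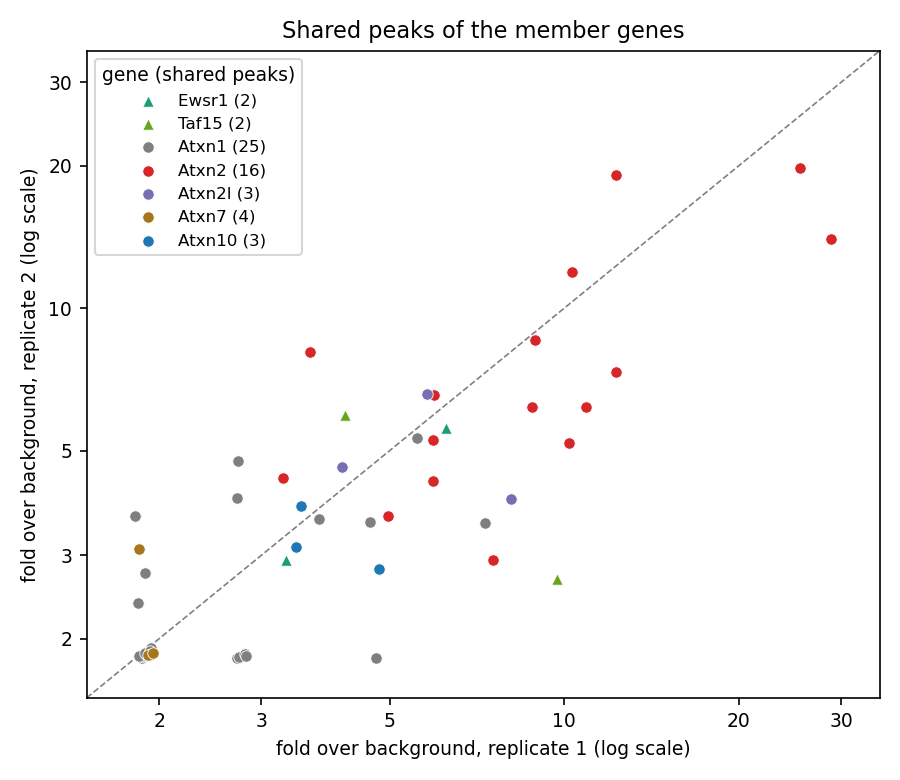
Fold over background in replicate 1 (horizontal, logarithmic) and replicate 2 (vertical, logarithmic) for the 55 shared peaks of the 9 genes; triangles are FET genes, circles ataxin genes, and the dashed line marks equal folds. The 3 peaks at the upper right with folds of 14 or more in at least 1 library and 12.3 or more in both belong to Atxn2, and 10 of 25 Atxn1 peaks and 3 of 4 Atxn7 peaks have folds under 2 in both libraries.

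Set side by side, the classes had a like number of shared peaks per length. They differed in where peaks lay, but genes within each class also differed. The FET genes and Tardbp had 4 shared peaks over 77.9 kb (0.514 per 10 kb), and the ataxin genes 51 over 844 kb (0.604 per 10 kb). Introns held 62.5% of the peaks of the FET genes and Tardbp (25 of 40, Wilson 95% interval 47.0 to 75.8%) and 95.5% of those of the ataxin genes (1116 of 1168, counting each replicate, 94.2 to 96.6%). Over all genes 90.7% of peaks were intronic. Exons of any transcript counted as exonic. The part of the gene that is exon also differed between genes, and the shares were not corrected for it. With the introns of the reference transcript counted as intronic, the shares were 67.5% and 95.9%, in the same order. These intervals cover counting error only, and peaks of one gene are not independent. The ataxin value is mostly that of the longest genes, while Atxn2l, the shortest, had 5 of 10 and 6 of 10 peaks in exons. In the other class most exonic peaks were those of Tardbp, with 6 of 8 in replicate 1 and 3 of 4 in replicate 2. Ewsr1 had 1 of 9 and 2 of 9, and Taf15 had 2 of 8 and 1 of 2.

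Of replicate 2 peaks, 33.3% overlapped a replicate 1 peak by 1 bp or more in the FET genes and Tardbp (5 of 15, 15.2 to 58.3%) and 15.5% in the ataxin genes (79 of 509, 12.6 to 18.9%), and the intervals overlapped. Over all genes the share was 7.87%. By gene it was 41.7% in Atxn2 (20 of 48, 28.8 to 55.7%), 40% in Atxn2l (4 of 10), 33.3% in Ewsr1 (3 of 9), 14.4% in Atxn1 (45 of 312), 8.57% in Atxn7, 6.52% in Atxn10 and 4.35% in Atxn3. Taf15 and Tardbp, with few replicate 2 peaks, had 100% (2 of 2) and 0% (0 of 4). Among the 4174 genes with at least 20 replicate 2 peaks, the median was 7%, and Atxn2 ranked 12. Atxn7, Atxn10 and Atxn3 were thus close to the general level. Without Atxn2 the ataxin genes stood at 12.8%. Wide peaks have more room to overlap, and the sets differed in peak width. Of replicate 2 peaks, 53.3% in the FET genes and Tardbp, 74.9% in the ataxin genes and 45.8% in Atxn2 were 30 bp wide. Over all genes 83.4% were, and the overlapped shares were not corrected for width.

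Folds divided the ataxin genes more than they divided the classes. A shared peak with a lower fold of at least 3 was present in 2 of 3 genes of the FET and Tardbp class and in 4 of 6 ataxin genes, against 10.3% of all genes. A lower fold of at least 5 was reached by Ewsr1 in the first class and by Atxn2, Atxn1 and Atxn2l in the second, against 3.66% of all genes. Of single shared peaks, 2 of 4 in the FET genes and 24 of 51 in the ataxin genes had a lower fold of at least 3, against 18.6% over all genes. Of the 24, 15 were in Atxn2. The median lower fold was 3.57 in the FET genes, 2.81 in the ataxin genes, 6.08 in Atxn2 and 1.87 in the ataxin genes without it, and 1.92 over all genes. Without Atxn2, the ataxin median is thus near that of all genes, but 25 of the 35 peaks behind it are those of Atxn1. The lower folds were 1.85 to 1.87 in Atxn7, 2.81 to 3.51 in Atxn10 and 3.95 to 5.79 in Atxn2l. With Atxn2 kept and Atxn1 left out, the ataxin median was 4.22.

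The first intron held 22 of the 52 intronic shared peaks of the 9 genes (42.3%), against 27.1% over all genes. Of those with a lower fold of at least 3, 19 of 24 were in a first intron (79.2%), against 28.3% over all genes. Atxn2 supplies 16 and 15 of these. Without it, the counts were 6 of 36 (16.7%) and 4 of 9 (44.4%), and the 4 are 3 in Atxn1 and 1 in Ewsr1.

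Other genes of the same disease and protein groups gave a frame for these values. Of 30 other ALS and FTD genes, 23 had peaks in both replicates and 13 of those a shared peak (56.5%, against 38.7% of all genes), 2 with a lower fold of at least 3. The highest counts there were 10 in Fig4, which encodes a lipid phosphatase, 3 in Optn, which encodes the autophagy receptor optineurin, and 3 in Elp3, a subunit of Elongator. Their best lower folds were 2.88, 2.82 and 1.86, under those of the FET genes. Of 33 other ataxia and polyglutamine disease genes, 29 had peaks in both replicates, 17 a shared peak (58.6%) and 7 one with a lower fold of at least 3. Itpr1, the inositol trisphosphate receptor gene of 338 kb, had 14 with a best lower fold of 8.55, Ano10 had 9 (1.92) and Spg7 5 (4.72). In both lists at most 4 shared peaks lay within 5 kb, against 16 in Atxn2. The genes with peaks in both replicates had a median length of 37.7 kb in the first list and 67.2 kb in the second. Over all genes it was 27900 bp, and long genes have more room for peaks.

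Relatives and partners of the ataxins had few shared peaks. Of 5 further ataxin paralogs, 4 had peaks in both replicates and 1 had shared peaks: Atxn7l1 had 5 over 225 kb with a best lower fold of 1.95, and Atxn1l and Atxn7l2 had 0. Of 16 stress granule and poly(A)-binding partners, all had peaks in both replicates and 2 had a shared peak (12.5%, against 38.7% of all genes). They were G3bp2, which encodes a stress granule scaffold, with 1 (lower fold 4.02), and Usp10, whose product binds G3BP, with 1 (2.8). Caprin1, another G3BP partner gene, had 0. The dense run of Atxn2 was thus not seen in the genes of its protein partners, whose median length is 34.9 kb.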

How the data were processed

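RBM45 iCLIP libraries of WT cells were used as deposited peak lists. Per the submitters' processing notes, the tools included MACS2 2.1.1.20160309, the aligner Novoalign 3.09.00, deepTools 3.2.1, HOMER 4.11.1 and bedtools 2.25.0, on mm10; their order was not stated. The lists were called per library by the authors, and the peak names carry a p threshold of 0.005. For each peak the authors deposited a score (10 times the −log10 p, rounded down), a fold (a ratio over background) and the −log10 p. The overlap list gives the authors' bases of overlap of each pair.

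Repeated lines were removed (267229 of 654978 in replicate 1, 237090 of 581790 in replicate 2). All 16399 deposited overlap pairs were found again as same-strand overlaps of at least 50% of the replicate 2 peak. Peaks were placed by midpoint on GENCODE M21 genes. A peak in more than 1 gene counts in each. A peak was exonic if its midpoint lay in an exon of any basic transcript of the gene, and introns were numbered in 1 reference transcript. Up to 6 shared peaks per gene, by lower fold, the strongest peak without any overlap per replicate, the 5 genes nearest Atxn2 and the first 3 of each gene list were named; the exonic peaks and overlapping pairs also named were chosen after their values were seen. Members and lists were chosen with earlier results of these data known. Counts were checked on simulated data. The software was pandas 2.3.3, numpy 2.4.6, scipy 1.17.1 and matplotlib 3.10.9 under Python 3.11.15.

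A count table of shared peaks, which its file header credits to featureCounts 1.6.3, has 8 library columns whose names match no sample's labels. They were not used, and the planned comparison of Mettl3 knockout with WT was not run. Depth per library is unknown.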

Additional observations from a re-analysis of the deposited data

How the results depend on the processing

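The 16 shared peaks of Atxn2 stayed within 1.5 times under every alternative run (12 to 21), and its share of overlapped replicate 2 peaks within its interval (33.3 to 54.1%). Shared peaks in the FET genes and Tardbp numbered 2 in place of 4 when −log10 p was at least 5 in both replicates, and 2 when the lower fold was at least 3. In the ataxin genes, in place of 51, they numbered 81 with an overlap of 1 bp, 26 with −log10 p of at least 3 and 16 with at least 5 in both, 24 with a lower fold of at least 3, and 26 without Atxn1. The overlapped share of ataxin replicate 2 peaks was 10% with an overlap of 50%, and 11.8% for replicate 1 peaks overlapped by replicate 2. Leaving out 1 replicate gave 15 to 25 distinct peaks in the FET genes and Tardbp and 509 to 659 in the ataxin genes. With repeated lines kept, the counts were 171 and 2709, and the intronic share of ataxin peaks was 96.8%. The lower-fold alternatives, those without a gene and the count by reference introns were chosen after seeing the data. No paired analysis was possible because the results come from no test and 1 group. Only 2 libraries of unknown depth were used, so a peak found in 1 library may have gone undetected in the other, and 0 shared peaks does not show that a gene is unbound.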
